A study of Mus musculus with 4 samples.

Results

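NMDA receptor subunits are encoded by 7 genes in the mouse, and these were chosen by symbol: Grin1, Grin2a, Grin2b, Grin2c, Grin2d, Grin3a and Grin3b. All 7 were found among the 22609 gene symbols in the count files. The hippocampus was profiled by RNA-Seq in 4 libraries from ovariectomized female mice, 2 labelled FLOX+GCI and 2 labelled FBN-ARO-KO+GCI. In each group both common carotid arteries were occluded for 20 min (global cerebral ischemia, GCI) and reperfused for 24 h, with ovariectomy 1 week earlier, and the study used mice aged 3 to 5 months. FBN-ARO-KO mice carry a Cre/LoxP deletion of Cyp19a1, the aromatase gene, driven by the CaMKIIα promoter in excitatory forebrain neurons, so aromatase in other cells is not targeted. The 4 libraries include no sham group, so the values describe the ischemic hippocampus only. The sources used here do not say whether libraries of a group came from separate mice, and p-values then measure only the spread between these libraries, which may be technical.

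NMDA receptors are glutamate-gated ion channels that admit calcium when glutamate and a co-agonist, glycine or D-serine, are bound and depolarization has relieved a magnesium block. GluN1, from Grin1, is present in every NMDA receptor and binds the co-agonist, GluN2 subunits bind glutamate and set the kinetics, and GluN3 subunits bind glycine and lower the calcium permeability. In the hippocampus these receptors are known for triggering synaptic plasticity and, when overactivated during ischemia, for carrying toxic calcium into neurons. The ratio of GluN2A to GluN2B is known to shift during postnatal development, and it was therefore followed in each library.

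The channel gate is a conserved part of these subunits, and its sequence is shown because it bears on whether 50-base reads can tell the genes apart. For 1 gene of each subunit class, Grin1, Grin2c and Grin3b, a line gives 75 bases of coding sequence of mm9 in the direction of transcription, in which the capitals mark 21 bases that encode the same 7 amino acids in the 3 proteins. The bases were read from GENCODE M1 transcripts and matched the mm9 genome.
Grin1 (chr2:25152695-25152769, minus strand): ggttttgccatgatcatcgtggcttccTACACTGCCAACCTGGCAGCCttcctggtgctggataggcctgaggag
Grin2c (chr11:115115039-115115113, minus strand): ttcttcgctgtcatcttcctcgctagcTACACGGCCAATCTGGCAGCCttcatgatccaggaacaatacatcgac
Grin3b (chr10:79437357-79437431, plus strand): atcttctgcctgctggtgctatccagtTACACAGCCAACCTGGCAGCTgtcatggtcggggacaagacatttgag

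Even in this stretch the genes differed at the level of bases. Grin1 and Grin2c were identical at 61.3% of the 75 positions, Grin1 and Grin3b at 57.3%, and Grin2c and Grin3b at 60.0%. The members not shown include pairs more alike than these, so the comparison was made over all transcripts. Over the whole protein-coding transcripts, no member shared a run of 50 bases with another member (0 members sharing for each gene, GluN2 pairs included), so a uniquely placed exact read belonged to 1 subunit gene. Grin3a shared 9 of its 11120 runs of 50 bases with other genes, Grin2b 1 of 7435 and Grin3b 24 of 3294.

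The genes lie on different chromosomes of mm9: Grin1 at chr2:25146701-25174707, Grin2a at chr16:9577803-9995014, Grin2b at chr6:135679844-136123529, Grin2c at chr11:115110483-115128557, Grin2d at chr7:53087253-53126298, Grin3a at chr4:49674483-49858616 and Grin3b at chr10:79433460-79439935. The GC content of the longest transcript was 59.4% for Grin1, 62.1% for Grin2c and 65.0% for Grin2d, against 51.6% for Grin2a, 51.4% for Grin2b and 49.2% for Grin3a. For Grin3b it was 63.4%. An antisense transcript, E130003G02Rik, overlaps 1307 exonic bases of Grin1 and had between 0 and 7 counts. The 3′ exons of Grin3b overlap ORF61, a gene on the opposite strand with between 2203 and 2820 counts, by 1059 bases. How the counting treated strand is not given in the sources used here. Reads from the stretch shared with E130003G02Rik or with ORF61 therefore cannot be assigned to either gene of the pair.

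Counts on genes totaled between 24333396 and 33076795 per library, and 3 counts, the limit that a count of 0 allows, corresponded to between 0.0907 and 0.123 CPM, the counts of a gene scaled to the size of its library (counting error only). The targeted gene Cyp19a1 had 4 and 1 counts in the FLOX+GCI libraries, against 2 and 2 in the FBN-ARO-KO+GCI libraries, too few to check the genotype labels. Markers of hippocampal pyramidal cells were present in all libraries (5 of 5 genes, summed CPM between 791 and 806), as were those of dentate granule cells (4 of 4 genes, between 206 and 252). Summed neuronal markers, of which 5 of 6 were listed and Map2 was not under that symbol, ranged from 5780 to 6125 CPM in FLOX+GCI and from 6115 to 6800 in FBN-ARO-KO+GCI, but 3 of the 5 were lower in FBN-ARO-KO+GCI (median log2 fold change -0.05), and Snap25 and Syt1 were higher. Summed astrocyte markers ranged from 798 to 1317 CPM in FLOX+GCI and from 880 to 1028 in FBN-ARO-KO+GCI. In whole hippocampus, fewer cells of a type and less RNA per cell cannot be told apart.

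Of the subunit genes, Grin1 was by far the most abundant. On the scale of CPM per kilobase of the longest transcript, the level of Grin1 was 130.0 ± 3.43 (SD, n = 2) in FLOX+GCI, against 118 ± 4.94 (SD, n = 2) in FBN-ARO-KO+GCI. Grin2b came next at 13.8 ± 2.59 and 14.3 ± 2.69 CPM per kilobase, followed by Grin2c at 10.6 ± 0.0921 and 9.19 ± 0.651, and Grin2a at 5.93 ± 1.36 and 6.35 ± 0.860 (FLOX+GCI first, SD, n = 2 each). Grin3a stood at 3.01 ± 0.453 and 3.24 ± 0.491 CPM per kilobase and Grin2d at 1.57 ± 0.113 and 1.28 ± 0.117 (same order, SD, n = 2 each). On this scale the ranges of neighbours in this order did not overlap across the 4 libraries.

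The order depends in part on which length is used, because the annotated 3′ untranslated region was 117 bases for Grin2a and 2272 for Grin2b, and the annotation behind the counts is not given in the sources used here. Grin1 exceeded Grin2b by between 7.09 and 11.1 times per library on the longest transcript, by between 6.25 and 9.78 times on coding length and by between 3.41 and 5.33 times on the union of exons. The order of Grin1, Grin2b and Grin2c was the same with each of the 3 lengths. On coding length, Grin3a (between 5.90 and 7.88 CPM per kilobase) and Grin2a (between 5.46 and 7.63) overlapped, and on the union of exons so did Grin3a (between 1.27 and 1.70) and Grin2d (between 1.11 and 1.53).

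Grin3b, which encodes the GluN3B subunit known mainly from motor neurons, was at the limit of detection. It had 3 and 4 counts in the FLOX+GCI libraries, against 3 and 1 in the FBN-ARO-KO+GCI libraries, too few to pass the filter on low counts, and no fold is given. Thus 6 of the 7 members were compared between genotypes.

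**Figure D1:**
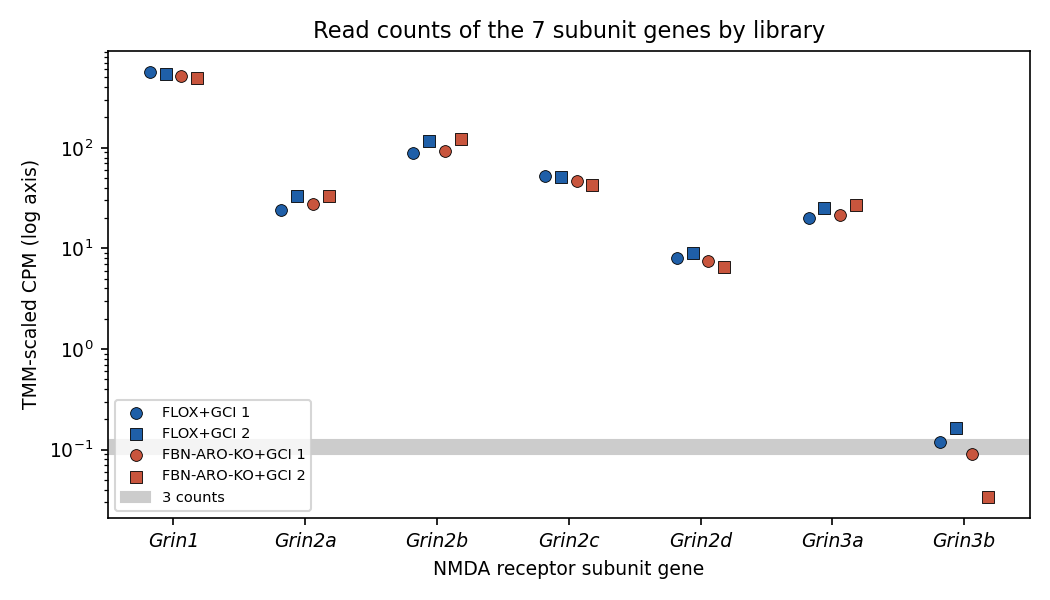
TMM-scaled CPM of each subunit gene (log axis) in the 4 libraries, circles for replicate 1 and squares for replicate 2, with the gray band marking the level of 3 counts. Grin1 lies between 491 and 566 CPM, Grin2b between 89.4 and 121 CPM, and Grin3b close to the band, between 0.0341 and 0.162 CPM.

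None of the 6 tested members differed between FBN-ARO-KO+GCI and FLOX+GCI at an adjusted p under 0.05 (edgeR, quasi-likelihood), against 0.0138% of all 14527 genes tested (2 genes). At an unadjusted p under 0.05 there were 0 members, where 16.5% of all tested genes passed. DESeq2 called 0 of the 3 members that it adjusted (Grin1, Grin2b and Grin2c), its filter on low means having removed the others. By log2 fold change, 3 members lay higher in FBN-ARO-KO+GCI and 3 lay lower, with a median of -0.04 against -0.01 for all genes tested. The groups did not overlap for 3 of the 6 members (Grin1, Grin2c and Grin2d), close to the 51.8% of all tested genes for which this held.

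Grin1, for the obligatory GluN1 subunit, stood at 566 and 546 TMM-scaled CPM in the FLOX+GCI libraries, against 521 and 491 in the FBN-ARO-KO+GCI libraries. Both FBN-ARO-KO+GCI libraries were below both FLOX+GCI libraries, by a small margin. This was a log2 fold change of -0.14 ± 0.07 (standard error), with an adjusted p of 0.365 in edgeR's quasi-likelihood fit, as in all edgeR values that follow unless stated. Its 95% interval ran from 0.812 to 1.02 times the FLOX+GCI level.

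Among the GluN2 genes, Grin2a stood at 24.0 and 33.2 CPM in the FLOX+GCI libraries, against 27.7 and 33.5 in the FBN-ARO-KO+GCI libraries. The groups overlapped, and the gap inside FLOX+GCI was wider than the gap between the group means. In edgeR, Grin2a showed a log2 fold change of 0.10 ± 0.17 (standard error), with an adjusted p of 0.792. Its 95% interval ran from 0.813 to 1.41 times.

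Grin2b, for the GluN2B subunit that predominates early in development and persists in the adult forebrain, stood at 89.4 and 117 CPM in the FLOX+GCI libraries, against 92.8 and 121 in the FBN-ARO-KO+GCI libraries. Its 2 lower values and its 2 higher values each came from both genotypes. By edgeR the log2 difference of Grin2b was 0.05 ± 0.16 (standard error; adjusted p = 0.886), with a 95% interval from 0.802 to 1.34 times.

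Grin2c, best known from cerebellar granule cells and also found in astrocytes and interneurons, stood at 52.2 and 51.6 CPM in the FLOX+GCI libraries, against 47.2 and 42.7 in the FBN-ARO-KO+GCI libraries. Both FBN-ARO-KO+GCI libraries were below the FLOX+GCI libraries, which were nearly equal. For Grin2c, edgeR gave -0.21 ± 0.09 on the log2 scale (standard error), at an adjusted p of 0.302, and the 95% interval, from 0.751 to 1.00 times, just reached no difference. The cerebellar granule cell marker Gabra6 had 0 and 0 counts in the FLOX+GCI libraries, against 1 and 0 in the FBN-ARO-KO+GCI libraries, and the 3 such markers summed to between 0.325 and 0.519 CPM per library. By contrast, 3 markers listed for thalamus summed to 44.4 and 41.3 CPM in FLOX+GCI, against 52.5 and 51.0 in FBN-ARO-KO+GCI. All 3 were higher by log2 fold change, but Prkcd overlapped, at 22.2 and 22.4 CPM in FLOX+GCI, against 27.9 and 21.4 in FBN-ARO-KO+GCI. The largest of these log2 fold changes was 0.41, for Lhx9 (edgeR, adjusted p = 0.250). The part of tissue outside the hippocampus in the Grin2c values was not tested.

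Grin2d, known in the adult hippocampus mainly from interneurons, stood at 8.10 and 8.97 CPM in the FLOX+GCI libraries, against 7.42 and 6.52 in the FBN-ARO-KO+GCI libraries. The groups did not overlap, with the FBN-ARO-KO+GCI libraries lower. In edgeR, Grin2d showed a log2 fold change of -0.29 ± 0.16 (standard error), with an adjusted p of 0.386, and a 95% interval from 0.632 to 1.06 times. This was the largest fold change in size of the 6 members. The summed level of 6 interneuron markers, all of them listed, ranged from 939 to 998 CPM in FLOX+GCI and from 908 to 915 in FBN-ARO-KO+GCI, with 3 of the 6 higher and 3 lower. The lower sum came mostly from Sst (-0.38) and Slc32a1 (-0.33, log2 fold changes), and the part of these markers in the Grin2d values was not tested.

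Grin3a, for the GluN3A subunit that is known to dampen calcium entry and to decline as the brain matures, stood at 20.1 and 24.9 CPM in the FLOX+GCI libraries, against 21.7 and 26.9 in the FBN-ARO-KO+GCI libraries. The groups overlapped in the same interleaved way as Grin2b. By edgeR the log2 difference of Grin3a was 0.11 ± 0.15 (standard error; adjusted p = 0.737), with a 95% interval from 0.843 to 1.38 times. Ppp3r2, which lies inside the Grin3a locus without sharing an exon with it, had between 1 and 4 counts.

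The members thus showed 2 kinds of profile over the libraries. Grin2a, Grin2b and Grin3a were each higher in replicate 2 than in replicate 1 of the same genotype. For Grin2b the fold between replicates was 1.31 in both FLOX+GCI and FBN-ARO-KO+GCI, with 95% counting intervals from 1.24 to 1.38 and from 1.25 to 1.37. For Grin2a it was 1.39 in FLOX+GCI (from 1.25 to 1.54) and 1.21 in FBN-ARO-KO+GCI (from 1.11 to 1.33), and for Grin3a 1.24 in both (from 1.10 to 1.40 and from 1.12 to 1.37). These folds exceeded counting error in every case, and they exceeded each gene's fold between genotypes.

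Grin1 had folds between replicates of 0.963 and 0.943, Grin2c of 0.988 and 0.905, and Grin2d of 1.11 and 0.879. By a rule chosen after these values were seen, 3 of the 6 members were at least 1.2-fold higher in replicate 2 than in replicate 1 in both groups, against 2.20% of all tested genes. Replicate numbers are not stated to mark a shared batch. Leaving out FLOX+GCI replicate 1 turned the log2 fold changes of Grin2a, Grin2b and Grin3a to -0.12, -0.13 and -0.04, and leaving out FBN-ARO-KO+GCI replicate 2 turned them to -0.05, -0.15 and -0.05.

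**Figure D2:**
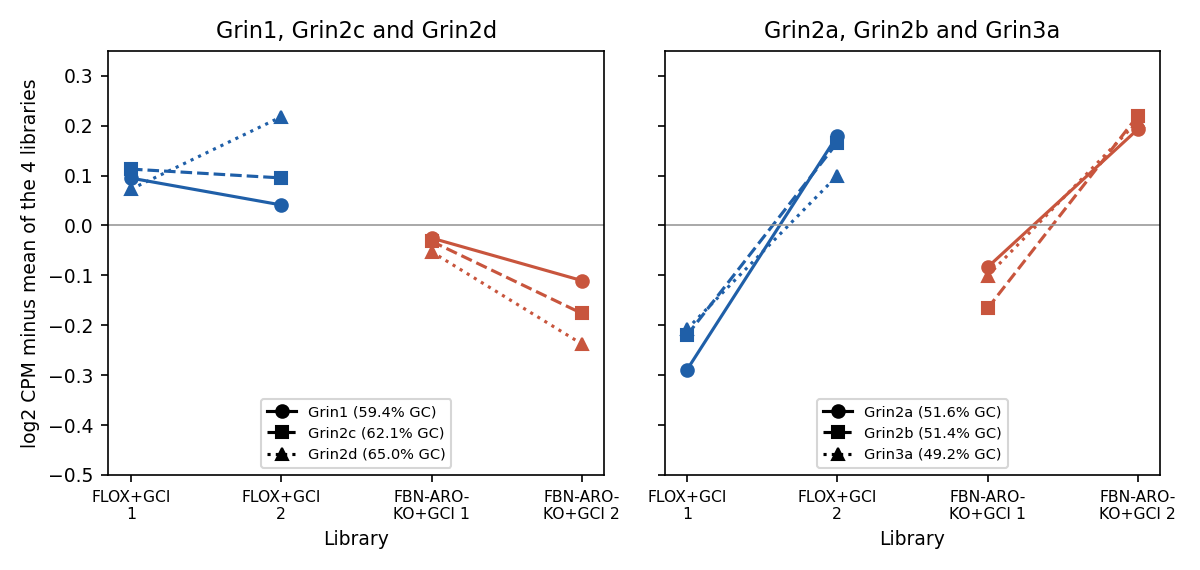
Log2 CPM of each tested subunit gene minus its mean over the 4 libraries, with lines joining the libraries of a genotype only to mark the gene. Grin1, Grin2c and Grin2d lie above 0 in both FLOX+GCI libraries and below 0 in both FBN-ARO-KO+GCI libraries, while Grin2a, Grin2b and Grin3a lie below 0 in replicate 1 and above 0 in replicate 2 of both genotypes.

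Among the 6 tested members, the 3 that were lower in both FBN-ARO-KO+GCI libraries were also those of highest GC content. Across 14020 tested genes, the difference between genotypes fell with GC content (Spearman's rho -0.55, a description over genes, since genes are no independent replicates). In the highest quartile of GC content, from 55.3% to 72.9%, which held Grin1, Grin2c and Grin2d, the median log2 fold change of all genes was -0.17 and 85.0% of genes were lower in FBN-ARO-KO+GCI. In the third quartile, with Grin2a and Grin2b, the median was -0.04, in the second, with Grin3a, 0.05, and in the lowest 0.16. The FBN-ARO-KO+GCI libraries also differed from each other along GC content (rho of -0.48 for replicate 2 against replicate 1), more than the FLOX+GCI libraries did (0.10).

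When the trend over GC content and transcript length was removed from each library, the log2 fold change became 0.06 (standard error 0.06) for Grin1, 0.03 (standard error 0.07) for Grin2c and -0.01 (standard error 0.15) for Grin2d. Thus Grin1 and Grin2c changed sign and Grin2d came close to 0. The correction takes out any difference between genotypes that runs with GC content, whatever its origin, and that origin was not tested. The corrected log2 fold changes of Grin2a, Grin2b and Grin3a were 0.11, 0.04 and 0.06. The corrected CPM of Grin1 was 524 and 514 in FLOX+GCI, against 530 and 555 in FBN-ARO-KO+GCI, without overlap. The adjusted p of Grin1 by edgeR was then 0.707. The share of all tested genes without overlap after the correction was not taken, so this is a description only. The folds between replicates of Grin2b remained, at 1.29 and 1.30, as did those of Grin2a, at 1.38 and 1.23.

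**Figure D3:**
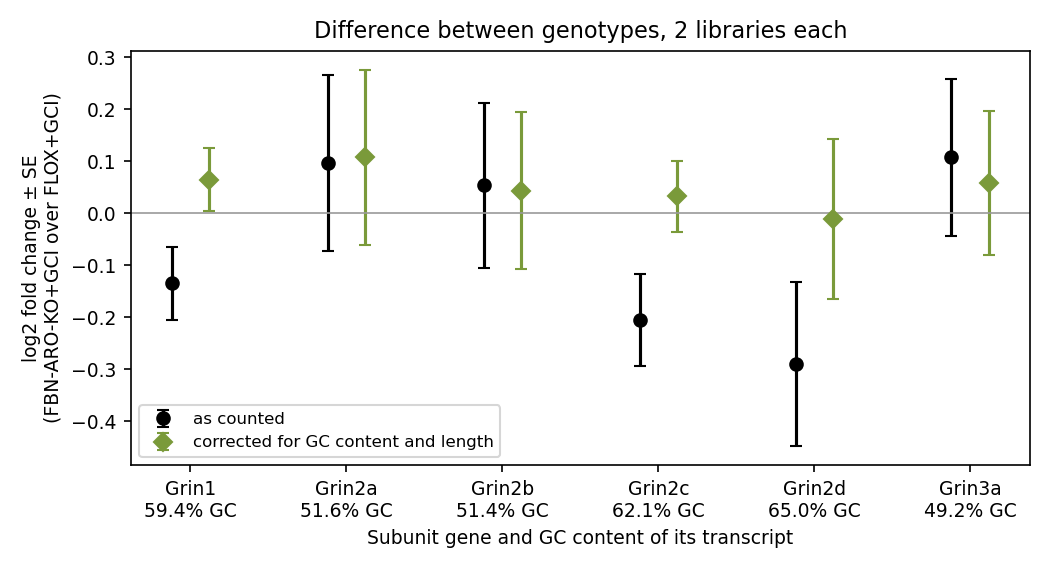
Log2 fold change between genotypes (positive values are higher in FBN-ARO-KO+GCI) with its standard error for the 6 tested subunit genes, before and after removal of the GC and length trend of every library. The values of Grin1, Grin2c and Grin2d move from -0.14, -0.21 and -0.29 to between -0.01 and 0.06, and the other 3 genes stay within 0.05 of their first value.

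The ratio of Grin2a to Grin2b counts, in which library scaling cancels, was 0.268 and 0.284 in FLOX+GCI, against 0.298 and 0.276 in FBN-ARO-KO+GCI. The 95% intervals from the exact binomial share, for counting error only, ran from 0.245 to 0.294 and from 0.263 to 0.307 in FLOX+GCI, and from 0.277 to 0.321 and from 0.257 to 0.297 in FBN-ARO-KO+GCI. The groups overlapped, and the intervals of the highest and the lowest ratio overlapped too. The mean ratio was 0.276 ± 0.0114 (SD, n = 2) in FLOX+GCI, against 0.287 ± 0.0154 (SD, n = 2) in FBN-ARO-KO+GCI. By a two-sided exact permutation test, the log2 difference of 0.06 had p = 0.667. With 2 libraries against 2, this exact test cannot give a p below 0.333. Although Grin2a and Grin2b each varied between replicates, they did so together, so the ratio varied less than either gene.

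**Figure D4:**
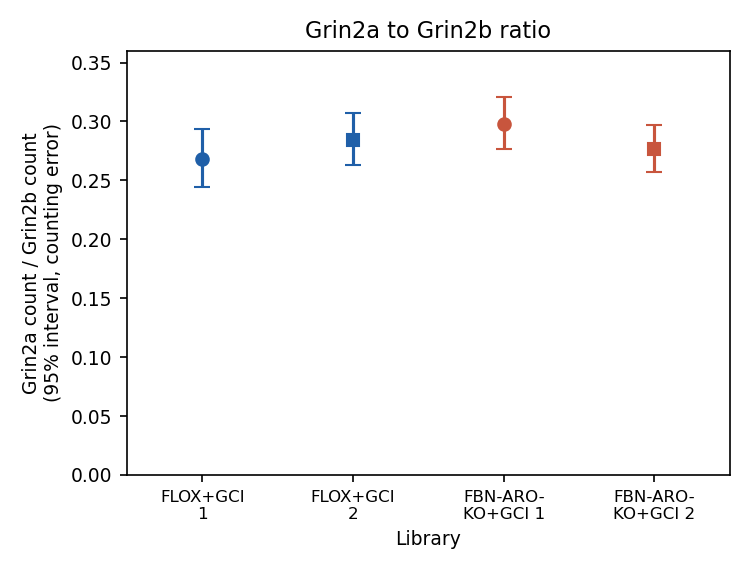
Ratio of Grin2a to Grin2b read counts in each library, with bars for the 95% interval of counting error and the vertical axis starting at 0. The 4 ratios lie between 0.268 and 0.298 with overlapping bars.

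Per kilobase of the longest transcript, Grin2b made up 41.1% and 45.0% of the summed level of the 4 GluN2 genes in FLOX+GCI, against 42.5% and 49.0% in FBN-ARO-KO+GCI. Grin2c made up 36.7% and 30.4% in FLOX+GCI, against 33.1% and 26.4% in FBN-ARO-KO+GCI. Grin2a contributed between 17.1% and 21.0%, and Grin2d between 3.63% and 5.13%. For Grin2a, Grin2b and Grin2c the groups overlapped in these shares. For Grin2d they did not, with 5.13% and 4.76% in FLOX+GCI, against 4.69% and 3.63% in FBN-ARO-KO+GCI. These shares carry no correction for GC content, which is highest in Grin2d. With the GC and length trend removed, Grin2d stood at 7.09 and 8.55 CPM in FLOX+GCI, against 7.81 and 7.71 in FBN-ARO-KO+GCI, and the groups overlapped.

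By the distance between profiles of centred log2 CPM over the 4 libraries, the genes most like Grin2a were Ikzf1 (0.05), Ncf1 (0.07) and Kcnq3 (0.07), among 11849 other genes with a mean of at least 100 counts. For Grin2b they were Plek (0.03), Zfp955a (0.04) and Shc3 (0.05). With 4 libraries such likeness is a description only.

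Genes that work with the NMDA receptor were followed in a list of 32, of which 31 passed the filter on low counts. The list was chosen with earlier results of these data known, so its tallies beside those of all genes are a description only. By the edgeR fit, 0 had an adjusted p under 0.05, 18 lay higher in FBN-ARO-KO+GCI and 13 lay lower, and the median log2 fold change was 0.04. At an unadjusted p under 0.05 there were 10 of the 31, 9 of them higher, where 16.5% of all tested genes passed. The groups did not overlap for 22 of the 31, against 51.8% of all tested genes. With the GC and length trend removed, the tally was 26 higher and 5 lower, with a median of 0.09, where 57.2% of all tested genes were higher with a median of 0.03. By then 4 of the list were at an unadjusted p under 0.05, against 11.4% of all tested genes. DESeq2 called 3 of the list, Dapk1, Ptpn5 and Ppp3cb, where it called 4.60% of the 6240 genes that it adjusted. Its filter on low means left some of the list without an adjusted p. The likelihood ratio version of the edgeR fit called 1, Dapk1, against 2.02% of all tested genes.

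Of 4 tested genes that supply or remove the co-agonist, Srr, for the serine racemase that makes D-serine, stood at 117 and 127 CPM in the FLOX+GCI libraries, against 139 and 141 in the FBN-ARO-KO+GCI libraries. For Srr, edgeR gave 0.20 ± 0.08 on the log2 scale (standard error), at an adjusted p of 0.270. The other 3 were lower, but with the GC and length trend removed Slc6a9, for a glycine transporter, was at 0.04, Slc7a10 at -0.01 and Slc1a4 at -0.08, and Srr at 0.14. Dao, which degrades D-serine, had 2 counts or fewer in each library. All 3 glutamate transporter genes, Slc1a1, Slc1a2 and Slc1a3, were higher by between 0.13 and 0.21 on the log2 scale, with Slc1a2 alone at an unadjusted p under 0.05. With that trend removed the values were 0.15, 0.10 and 0.07 in the same order, and 0 of the 3 were at an unadjusted p under 0.05 by edgeR. For GLT-1, the protein of Slc1a2, the paper reports lower levels in FBN-ARO-KO+GCI at later days after GCI. The values here are RNA of whole hippocampus at 24 h, a different measure and time. Of 8 scaffold and auxiliary genes, 4 were higher and 4 lower, between -0.24 and 0.21. Dlg4, for the scaffold PSD-95, had a log2 fold change of -0.03, which turned to 0.16 with that trend removed.

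The smallest p-values of the list lay among its 11 kinases and phosphatases. Dapk1, a calcium/calmodulin-regulated kinase known to bind GluN2B in ischemia, stood at 199 and 225 CPM in the FLOX+GCI libraries, against 274 and 263 in the FBN-ARO-KO+GCI libraries. Both FBN-ARO-KO+GCI libraries were above the FLOX+GCI libraries. Dapk1 showed a log2 fold change of 0.35 ± 0.08 (standard error) in edgeR, which was 0.36 once the GC trend was removed. Without that removal its adjusted p was 0.238 by edgeR's quasi-likelihood fit, 0.0311 by the likelihood ratio version and 0.0148 by DESeq2. With the GC and length trend removed, the quasi-likelihood fit gave an adjusted p of 0.317 for Dapk1.

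Ptpn5, for the striatal-enriched phosphatase STEP that dephosphorylates GluN2B, stood at 172 and 222 CPM in the FLOX+GCI libraries, against 154 and 148 in the FBN-ARO-KO+GCI libraries. The FLOX+GCI libraries were higher, and further apart from each other than the FBN-ARO-KO+GCI libraries. In edgeR, Ptpn5 showed a log2 fold change of -0.39 ± 0.12 (standard error), with an adjusted p of 0.245. The value was -0.19 after the correction. With 1 library left out, the log2 fold change lay between -0.56, without FLOX+GCI replicate 1, and -0.20, without FLOX+GCI replicate 2. Ppp3cb, a catalytic subunit of the calcium-activated phosphatase calcineurin, stood at 418 and 366 CPM in the FLOX+GCI libraries, against 453 and 551 in the FBN-ARO-KO+GCI libraries. By edgeR the log2 difference of Ppp3cb was 0.36 ± 0.11 (standard error; adjusted p = 0.245), and 0.16 after the correction.

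Ppp3ca, the other calcineurin gene of the list, showed a log2 fold change of 0.21, with 0.11 after the correction. Rasgrf2, for a calcium-dependent exchange factor of Ras, had 0.20, with 0.09 after the correction. Camk2a, for the kinase that binds GluN2B and whose promoter drives Cre in these mice, stood at 4918 and 5088 CPM in the FLOX+GCI libraries, against 5172 and 5145 in the FBN-ARO-KO+GCI libraries. For Camk2a, edgeR gave 0.04 ± 0.06 on the log2 scale (standard error), at an adjusted p of 0.731.

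**Figure D5:**
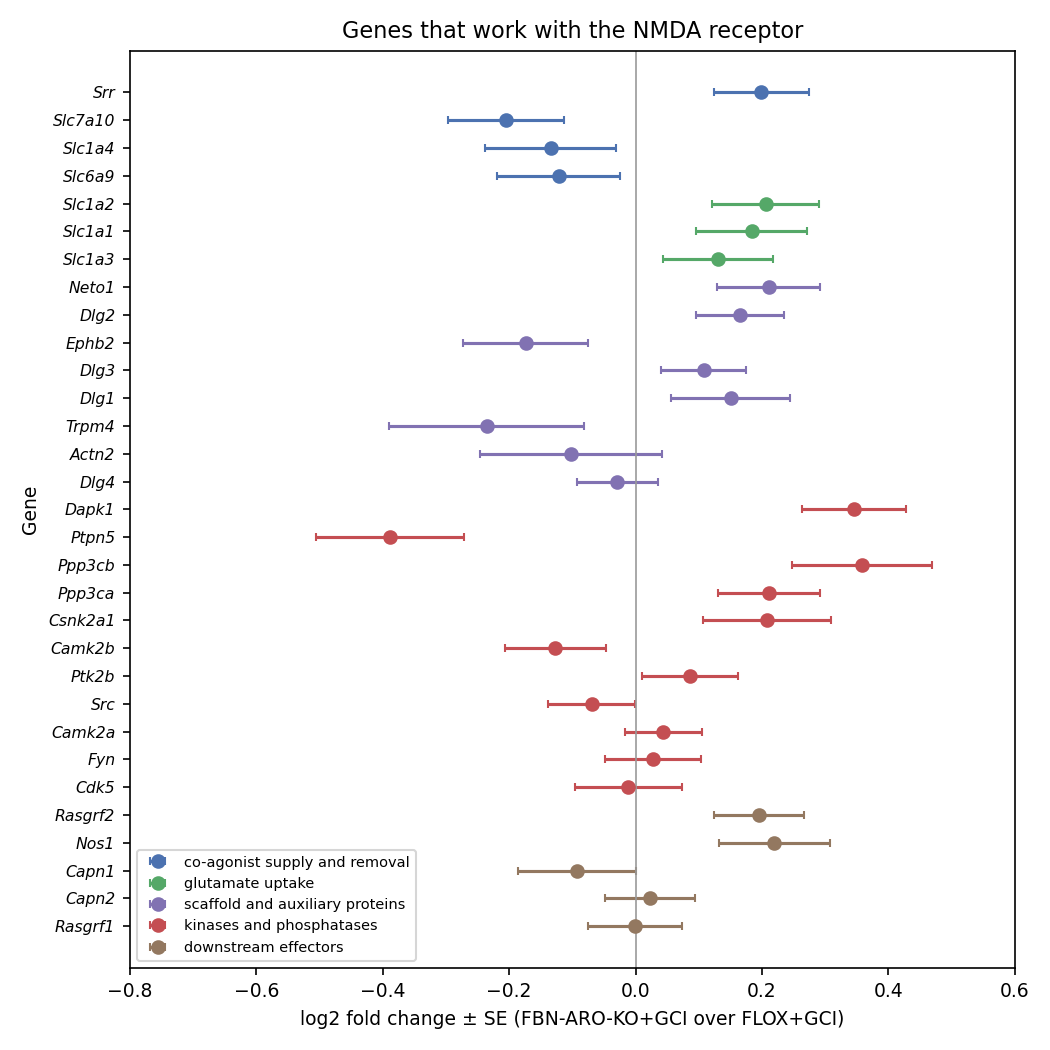
Log2 fold change with its standard error for the 31 tested genes that work with the NMDA receptor, colored by role. Values run from -0.39 for Ptpn5 to 0.36 for Ppp3cb, with 18 genes to the right of 0.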

How the data were processed

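The authors aligned 50 bp single-end reads to mm9 with TopHat2 2.0.8b, counted them per gene with HTSeq (versions from the submitters' processing notes where given) and deposited raw counts per gene symbol, without normalization. The HTSeq version, strand setting and annotation release are not given in the sources used here. The 5 counters of unassigned alignments, between 43.4% and 45.5% of each library's total, were left out. The study used DESeq at an adjusted p under 0.05.

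From these counts, all genes that passed filterByExpr (minimum count 10) were scaled by the trimmed mean of M-values (TMM), and genotypes were compared by edgeR (4.0.16, under R 4.3.3) with glmQLFit and glmQLFTest, the quasi-likelihood test, and Benjamini-Hochberg adjusted p-values. Standard errors were approximated as the log2 fold change over the square root of F. Ratios were tested by exact permutation. Transcript lengths and GC content came from GENCODE M1 of NCBIM37, the build of mm9, for 20282 of 22609 symbols. Alternatives were DESeq2 1.42.0, other size factors, other filters, a likelihood ratio fit, a block for replicate number, an offset from natural splines (5 degrees of freedom) of GC content and length, and each library left out in turn. The procedure was tested on simulated data.

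All 7 members are named, with the 6 listed partner genes of smallest p, the 3 genes most like Grin2a and Grin2b in profile, and genes overlapping a member. Other partners and single marker genes were named after their values were seen. Members and lists were chosen with earlier results of these data known. Gate sequences of the other members and 1 partner gene are not reported here.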

Additional observations from a re-analysis of the deposited data

How the results depend on the processing

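None of the subunit genes had an adjusted p under 0.05 in any of 13 alternatives, each library left out included (0 members), and the smallest adjusted p over them was 0.229, for Grin2c without FBN-ARO-KO+GCI replicate 1. With 2 libraries per group, changes smaller than the intervals given for each gene could not be shown, and leaving out a library assumes that the lone library varies like the others. Of 78 log2 fold changes, 68 kept their direction and 10 turned. Grin1 turned to 0.0640 and Grin2c to 0.0325 with the GC and length offset, and to 0.0637 and 0.0328 with the replicate block added. With 1 library left out, Grin2a lay between -0.119 and 0.346, Grin2b between -0.151 and 0.255, and Grin3a between -0.0541 and 0.266. Without FLOX+GCI replicate 1 these were -0.119, -0.125 and -0.0376, and without FBN-ARO-KO+GCI replicate 2 they were -0.0467, -0.151 and -0.0541. The Grin2a to Grin2b log2 ratio difference stayed between 0.00 and 0.11 with 1 library left out, and was 0.08 with the GC and length correction. Over all genes, 287 were called with DESeq2, 294 with the likelihood ratio test, 5 with every gene of at least 1 count, 184 with the replicate block (42 higher, 142 lower), 1 with the replicate block and the GC and length offset, and between 0 and 193 with 1 library left out. Partner genes called were 3 with DESeq2, 1 with the likelihood ratio test and between 0 and 1 with 1 library left out. The causes of these differences in counts were not tested. Across genes, libraries that share a number deviated together with a correlation of 0.129, and with 2 pairs the numbers are not shown to pair the samples. The replicate block changed no call among the members, with Grin2b at 0.05 (edgeR, adjusted p = 0.817), and left the log2 ratio of Grin2a to Grin2b at 0.06, with 0.15 for replicate 1 and -0.04 for replicate 2.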

Other observations

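Set against Grin1, the counts of the other subunit genes gave 5 further ratios per library. Grin2b to Grin1 was 0.158 and 0.214 in FLOX+GCI, against 0.178 and 0.247 in FBN-ARO-KO+GCI, and Grin3a to Grin1 was 0.0355 and 0.0457 in FLOX+GCI, against 0.0416 and 0.0547 in FBN-ARO-KO+GCI, so both overlapped between genotypes. Grin2a to Grin1 ranged from 0.0424 to 0.0683 and overlapped too. Grin2c to Grin1 was 0.0922 and 0.0945 in FLOX+GCI, against 0.0906 and 0.0870 in FBN-ARO-KO+GCI, and Grin2d to Grin1 was 0.0143 and 0.0164 in FLOX+GCI, against 0.0142 and 0.0133 in FBN-ARO-KO+GCI. For these last ratios the groups did not overlap, with a two-sided exact permutation p of 0.333 each, the smallest that 2 libraries against 2 allow, and 0.667 after Benjamini-Hochberg adjustment over all 6 ratios. All 6 ratios came from counts without the GC and length correction, and the genes differ in GC content. With that correction, the CPM of Grin2c and of Grin2d overlapped between genotypes. That of Grin1 did not, and the share of all tested genes without overlap after the correction was not taken. Corrected ratios to Grin1 were not tested.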
